A study of Homo sapiens with 8 samples.

Results

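CHERP is a nuclear G-patch protein found with the U2 small nuclear ribonucleoprotein (U2 snRNP), and 10 genes were followed here: CHERP and 9 genes of the proteins it works beside. They are RBM17 and U2SURP, which form a complex with CHERP, SF3B1, SF3B2 and SF3B3 of the SF3B complex, SF3A1 and SF3A3 of the SF3A complex, the splicing factor PUF60, and the helicase DHX15. The genes were taken by name, with earlier results of these data known, out of 12067 genes with 1 or more splicing events in the deposited tables. All 10 had an event in the cytoplasmic tables, 48 events out of 43559, whereas 9 had one in the whole-cell tables, 140 events out of 89379. SF3A1 had no event in whole cells and is described from the cytoplasm alone.

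The RNA came from U2OS cells, a human osteosarcoma line. All cells had received 20 nM siRNA for 48 h, either against EGFP, a gene foreign to these cells that serves as the control, or the siRNA numbered 2 against CHERP. RNA was taken from whole cells or from cytoplasm. There were 8 libraries, 2 per combination of siRNA and fraction, described in the methods as biological replicates. Each group is this 1 line and depletion rests on 1 siRNA, so effects of that siRNA on other transcripts cannot be told apart from effects of the loss of CHERP. The effective lengths given for the same splicing forms also differed between the fractions, from which reads of different lengths were inferred. Fraction and any difference in sequencing therefore cannot be told apart.

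As background, U2 snRNP recognizes the branch site of an intron together with U2AF, which binds the polypyrimidine tract and the AG at the 3′ splice site. SF3B1 is the scaffold of SF3B and holds the branch helix, SF3B2 and SF3B3 are further SF3B subunits, and SF3A1 and SF3A3 connect SF3A to the U2 RNA. PUF60 binds polypyrimidine tracts like U2AF2, and DHX15 is a DEAH-box helicase that is activated by G-patch proteins. Several splicing factor genes contain exons or introns whose inclusion puts a stop codon into the transcript, which limits the amount of productive mRNA.

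Splice sites of events in SF3B1, U2SURP, CHERP, SF3B2 and RBM17 are shown first, because they mark where the alternative forms described below begin or end. Those of the PUF60 events are not shown. They were read from GRCh37, the assembly of the tables, 5′ to 3′ on the gene's strand. Capitals mark the GT or AG at the intron's end, or the 6 bases that hold both AG dinucleotides of a tandem 3′ splice site.
SF3B1, 3′ splice site of a 56-base exon, chr2:198283673-198283695, minus strand: gtaaagagataattttctAGgct
SF3B1, 5′ splice site of the same exon, chr2:198283614-198283622, minus strand: agtGTacgt
SF3B1, 5′ splice site of the intron before it, chr2:198285146-198285154, minus strand: atgGTaatt
U2SURP, 3′ splice site of a 177-base exon, chr3:142773765-142773787, plus strand: ttgggggctttgttccatAGgaa
CHERP, upstream 3′ splice site, chr19:16641722-16641744, minus strand: gtggccgggtcccgccccAGggc
CHERP, downstream 3′ splice site 33 bases further, chr19:16641689-16641711, minus strand: ggaaagtctctccctcacAGcca
SF3B2, tandem 3′ splice site, chr11:65822986-65823011, plus strand: aacttgttttcttttttAAGCAGgga
SF3B2, tandem 3′ splice site, chr11:65824717-65824742, plus strand: ttctttttcccgtctctTAGTAGctg
SF3B2, tandem 3′ splice site, chr11:65835397-65835422, plus strand: gatcccattgtccttcgCAGAAGtga
RBM17, tandem 3′ splice site, chr10:6148084-6148109, plus strand: tatttcctttgttatcaCAGAAGgcg

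Gene abundance in a library was taken as the reads on the gene's skipped exon (SE), alternative 5′ splice site (A5SS) and alternative 3′ splice site (A3SS) events, each divided by the effective length of its form, summed, and scaled by median ratios. It depends on how many events a gene has, so it compares libraries and not genes. Summed over these events, read counts lay between 21443900 and 26006621 in whole-cell libraries and between 4321336 and 5307743 in cytoplasmic ones. Of these, the 10 genes took between 55986 and 66713 in whole cells and between 6034 and 7362 in the cytoplasm. Events can share reads, so a read may be counted more than once in these sums and in the reads given per gene. Over 936 retained introns (RI) with an average of no fewer than 20 reads in each fraction, the median inclusion level lay between 5.57% and 6.64% in whole-cell libraries and between 1.33% and 2.05% in cytoplasmic ones. Among mesenchymal markers, VIM had between 57402 and 80880 reads and FN1 between 11893 and 16859 per whole-cell library. COL5A1 had 52 and 50 whole-cell reads with EGFP siRNA against 144 and 117 with CHERP siRNA. It rose by 1.26 on the log2 scale (adjusted p = 0.00807 from limma). RUNX2 went the other way, with 16 and 18 against 0 and 3, under the filter. ALPL, without such an event in whole cells, had 2 and 11 reads against 43 and 32 in the cytoplasm. COL1A1, COL1A2, SPARC and TWIST1 had no SE, A5SS or A3SS event to measure. Of 9 markers of other cell types, EPCAM, KRT18, PTPRC, CD3E, PECAM1 and ALB likewise had no event of these types, so no abundance could be given for them. KRT8 had 19315 and 15511 reads with EGFP siRNA against 12712 and 12305 after CHERP siRNA in whole cells and fell by 0.54 on the log2 scale (adjusted p = 0.0115 from limma). NCAM1 had 163 and 215 reads against 281 and 293 and rose by 0.62 (adjusted p = 0.0284 from limma). CDH1 had 1 and 1 reads against 22 and 15, under the filter. The summed level of the list, nearly all KRT8, was 52.5 and 39.6 against 31.8 and 32.5. The part of these markers in the results was not tested.

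In whole cells, CHERP itself was lower with CHERP siRNA, and SF3B2, SF3B3 and RBM17 were lower too. SF3A3 was higher, and the other 4 genes tested did not pass. The test was limma on log2(abundance + 0.01) with Benjamini-Hochberg adjustment over all genes with an average of no fewer than 20 reads per library and a threshold of 0.05. Thus 4 of 9 genes fell and 1 of 9 rose, where 18.4% of all 9660 genes tested fell and 18.8% rose. Without either CHERP siRNA library the number that fell was 1. The 4 include CHERP, the target itself, and without it 3 of 8 genes fell. The median log2 fold change was -0.28 over the 9 genes, -0.20 without CHERP, and 0.0055 over all genes tested.

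CHERP, the target of the siRNA, had 103 and 77 reads in the EGFP siRNA libraries and 3 and 10 reads in the CHERP siRNA libraries of whole cells, from 2 events. The groups did not overlap, and the mean abundance with CHERP siRNA was 8.33% of that with EGFP siRNA. The log2 fold change came to -3.46 (standard error 0.57, adjusted p = 0.00146 from limma). In the cytoplasm CHERP had 31 and 21 reads against 3 and 4, from 1 event. These fell short of the mean of 20 reads, and without that filter the log2 fold change came to -2.69 (standard error 0.38, adjusted p = 3.41e-05 from limma). The size of the whole-cell change depended on the offset at so few reads and was -1.98 on the log2(abundance + 0.1) scale, with an adjusted p of 0.000616.

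RBM17 and U2SURP, the partners of CHERP in its complex, had many more reads. The abundance of RBM17 in whole cells was 11.8 and 12.7 with EGFP siRNA against 9.25 and 9.39 with CHERP siRNA. Both CHERP siRNA libraries lay below both controls, and the log2 fold change of -0.39 passed (standard error 0.11, adjusted p = 0.0176 from limma). In the cytoplasm, where RBM17 had 1 event with 264 to 342 reads, the abundance was 1.31 and 1.44 against 1.204 and 1.173, with a log2 fold change of -0.20 that did not pass (95% interval -0.50 to 0.095, adjusted p = 0.239 from limma). U2SURP showed values of 9.56 and 12.5 with EGFP siRNA against 8.38 and 9.65 with CHERP siRNA in whole cells. These groups overlapped, and the log2 fold change of -0.28 did not pass (95% interval -0.61 to 0.044, adjusted p = 0.157 from limma). In the cytoplasm U2SURP fell, from 1.40 and 1.61 to 1.19 and 1.07, with a log2 fold change of -0.40 (standard error 0.14, adjusted p = 0.0348 from limma). The cytoplasmic call of U2SURP was lost with 1 event per gene (adjusted p = 0.0537), and without the second EGFP siRNA library (adjusted p = 0.189) or the second CHERP siRNA library (adjusted p = 0.142, limma), and the whole-cell change passed without the first EGFP siRNA library (log2 fold change -0.49, adjusted p = 1.38e-05 from limma).

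Of the SF3B subunits, SF3B2 and SF3B3 were lower with CHERP siRNA in both fractions. SF3B2, which contacts the intron next to the branch site, had abundances of 42.4 and 42.7 in EGFP siRNA whole cells and 32.2 and 31.3 after CHERP siRNA. The log2 fold change came to -0.42 (standard error 0.092, adjusted p = 0.00598 from limma). In the cytoplasm the values were 20.13 and 18.95 against 13.6 and 13.2, a log2 fold change of -0.55 (standard error 0.065, adjusted p = 4.16e-05 from limma). SF3B2 therefore showed no overlap between siRNAs in either fraction.

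SF3B3, a propeller-shaped subunit of SF3B, went from 68.4 and 72.1 to 51.1 and 52.8 in whole cells, with a log2 fold change of -0.43 (standard error 0.092, adjusted p = 0.00529 from limma). Its cytoplasmic abundance was 11.02 and 12.25 against 8.17 and 9.41, with a log2 fold change of -0.41 (standard error 0.087, adjusted p = 0.00251 from limma). The whole-cell calls of SF3B2, SF3B3 and RBM17 rested on having both CHERP siRNA libraries. Without the first, the adjusted p from limma was 0.0866, 0.123 and 0.186, and without the second 0.125, 0.0751 and 0.152, while the log2 fold changes stayed between -0.46 and -0.38.

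SF3B1, the scaffold subunit, passed in the cytoplasm only. In whole cells its abundance was 37.88 and 43.82 with EGFP siRNA against 37.02 and 37.87 with CHERP siRNA over 18 events, so that the groups were next to each other. The log2 fold change of -0.12 did not pass (95% interval -0.35 to 0.11, adjusted p = 0.386 from limma), although it did without the first EGFP siRNA library (-0.24, adjusted p = 0.0070 from limma). In the cytoplasm SF3B1 fell from 1.80 and 1.77 to 1.10 and 1.21, over 2 events with 144 to 228 reads per library, a log2 fold change of -0.62 (standard error 0.13, adjusted p = 0.00217 from limma). The difference between the fractions was tested over events present in both, where the cytoplasmic log2 fold change of SF3B1 was lower by 0.44 than the whole-cell one (log2 difference -0.44, 95% interval -0.82 to -0.063). Its unadjusted p was 0.0265 and its adjusted p 0.998 from limma. None of the 8 genes in this limma interaction test passed, and 0% of all 6505 genes tested did, with an unadjusted p under 0.05 for SF3B1 alone among the 8.

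SF3A3 was the gene of the 10 that passed as higher with CHERP siRNA. This SF3A subunit had abundances of 18.1 and 21.7 with EGFP siRNA against 34.3 and 35.5 with CHERP siRNA in whole cells. The lowest CHERP siRNA library was above the highest control, and the log2 fold change came to 0.82 (standard error 0.11, adjusted p = 0.000516 from limma). In the cytoplasm the abundance went from 6.84 and 6.56 to 13.4 and 12.8, a log2 fold change of 0.97 (standard error 0.073, adjusted p = 1.21e-06 from limma). SF3A3 passed without any one of the libraries in both fractions. SF3A1, its partner in SF3A, was measured by a single cytoplasmic exon with 0.747 and 0.750 against 0.721 and 0.584. The log2 fold change of -0.20 did not pass (95% interval -0.60 to 0.19, adjusted p = 0.378 from limma).

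PUF60 and DHX15 did not pass in either fraction. The abundance of PUF60 in whole cells was 25.04 and 16.63 with EGFP siRNA against 19.1 and 19.2 with CHERP siRNA. The controls lay on both sides of the CHERP siRNA libraries, and the log2 fold change came to -0.09 (95% interval -0.46 to 0.28, adjusted p = 0.700 from limma). The sign of the PUF60 value depended on which control was used, at 0.20 without the first EGFP siRNA library (adjusted p = 0.0565 from limma) and -0.38 without the second (adjusted p = 0.00164 from limma). In the cytoplasm PUF60 had values of 3.95 and 4.01 against 4.25 and 3.64, with a log2 fold change of -0.018 (95% interval -0.24 to 0.20). DHX15 had 24.1 and 26.0 against 26.9 and 28.2 in whole cells. Both CHERP siRNA libraries lay above both controls, with a log2 fold change of 0.14 (95% interval -0.083 to 0.36, adjusted p = 0.300 from limma). Its cytoplasmic abundance was 1.78 and 1.97 against 1.96 and 1.69, with a log2 fold change of -0.039 (95% interval -0.32 to 0.24).

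**Figure D1:**
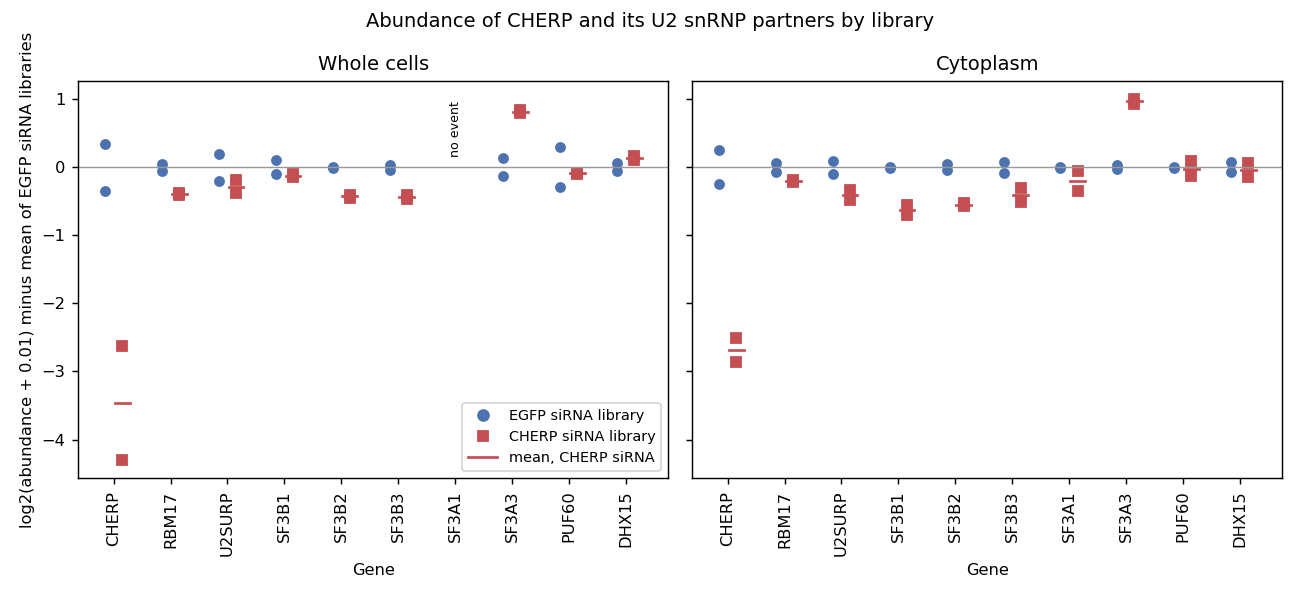
Abundance of each of the 10 genes by library, as log2(abundance + 0.01) minus the mean of the EGFP siRNA libraries of the same fraction (y axis), for whole cells (left) and cytoplasm (right). Points are libraries (2 per siRNA) and red lines are CHERP siRNA means. CHERP lies lowest, SF3A3 is the gene with both CHERP siRNA libraries furthest above the line, and SF3B2 and SF3B3 lie below it in both fractions, while SF3A1 had no whole-cell event.

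In the cytoplasm 9 genes were tested, since CHERP was below the filter. SF3B1, SF3B2, SF3B3 and U2SURP fell, 4 of 9, where 23.6% of the 7293 genes tested fell. SF3A3 rose, 1 of 9, where 24.6% of the genes tested rose. The median log2 fold change of the 9 genes was -0.20, and that of all genes tested was -0.0082. Processed pseudogenes are annotated for RBM17 (3), SF3A3 (2) and U2SURP (1), so reads of these genes may be divided between copies by the mapping.

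The authors' own expression table for the cytoplasm listed 8 of the 10 genes among its 6757 rows, without PUF60 and DHX15. The table holds no gene outside its own threshold for a difference, so every gene in it differs by that selection. It gives a mean normalized count for each of 2 conditions with no value per library, and its header does not name the siRNA of a column. Its title puts EGFP before CHERP, as do the titles of the splicing tables, whose first group was taken as EGFP siRNA for that reason. In the splicing tables CHERP was lower in the second group, whereas here it was lower in the first column, so no siRNA was assigned to these columns. CHERP had a mean of 209 in the first column and 1685 in the second. On the side where CHERP was lower, 5 other genes were lower as well. SF3B1 had means of 2481 and 3176, SF3B2 8203 and 9777, SF3B3 5791 and 6980, U2SURP 889 and 1080, and RBM17 2203 and 2429 in the first and second columns. SF3A3, with 3452 and 1750, and SF3A1, with 3640 and 2824, lay the other way. These are the authors' means and carry no error here. Relative to CHERP, SF3A1 thus lay opposite to its log2 fold change of -0.20 above, which came from 1 exon and did not pass.

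The remaining genes of the pathway were counted from lists fixed by name. Of the other SF3A and SF3B subunits, 3 of 5 were tested in whole cells and 2 in the cytoplasm, and 1 rose in each, where 18.8% and 24.6% of all genes tested rose. This was SF3B6, the subunit that touches the branch-point adenosine. It had 2122 and 2595 reads with EGFP siRNA against 12970 and 12090 with CHERP siRNA in whole cells, and 267 and 246 against 1493 and 1271 in the cytoplasm. The groups were far apart in both fractions, with log2 fold changes of 2.34 (standard error 0.099, adjusted p = 2.03e-06 from limma) and 2.35 (standard error 0.10, adjusted p = 2.31e-08 from limma). SF3B6 passed under every alternative run. SF3B4 had a log2 fold change of -0.29 in whole cells (adjusted p = 0.0944 from limma). PHF5A had 0.080 in whole cells and -0.39 in the cytoplasm (adjusted p = 0.555 and 0.0689 from limma).

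Of the 9 U2 snRNP core proteins, 2 of 9 tested fell in whole cells and 2 of 8 in the cytoplasm, and none rose, where 18.4% and 23.6% of all genes tested fell. SNRPA1, the U2-specific leucine-rich protein of the particle, fell by 0.45 on the log2 scale in whole cells (adjusted p = 0.00556) and by 0.41 in the cytoplasm (adjusted p = 0.00193, limma). SNRPB, a shared Sm protein, fell by 0.39 and 0.29 (adjusted p = 0.0174 and 0.00287 from limma). The whole-cell calls of SNRPA1 and SNRPB were lost without either CHERP siRNA library, with adjusted p between 0.0640 and 0.194. SNRPD1, another Sm protein, had -0.25 in whole cells (adjusted p = 0.0897), and SNRPB2 had -0.14 in the cytoplasm (adjusted p = 0.216, limma). The median over the core list was -0.092 in whole cells and -0.076 in the cytoplasm.

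Of 14 U2-associated factors, 7 of 14 fell and 1 rose in whole cells, and 7 of 13 fell and none rose in the cytoplasm, with medians of -0.33 and -0.30. Of all genes tested, 18.4% fell and 18.8% rose in whole cells, and 23.6% and 24.6% in the cytoplasm. HTATSF1, a protein that binds SF3B1, had 252 and 316 reads against 116 and 131 in whole cells, with a log2 fold change of -1.25 (standard error 0.20, adjusted p = 0.00107 from limma). RBM25 fell by 0.69 in whole cells and by 0.85 in the cytoplasm (adjusted p = 0.00162 and 0.00130 from limma), but its whole-cell value was 0.19 with 1 event per gene (adjusted p = 0.583). U2AF1L4, a paralog of U2AF1, rose by 1.00 on the log2 scale in whole cells (standard error 0.21, adjusted p = 0.00512 from limma), and not without the first CHERP siRNA library (adjusted p = 0.0672). U2AF2, the large subunit of U2AF, and the SR protein SRSF1 fell by 0.37 and 0.50 in the cytoplasm (adjusted p = 0.000731 and 0.00113 from limma).

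Among 20 genes of other G-patch proteins, 5 of 19 tested fell and 1 rose in whole cells, and 7 of 16 fell and 1 rose in the cytoplasm, against the same shares of all genes (18.4% and 18.8%, then 23.6% and 24.6%). SUGP1, RBM5 and RBM10 are in both this list and the U2-associated list, so the counts of these lists are not of separate genes. GPATCH4 fell by 0.56 and 0.68 in the respective fractions (adjusted p = 0.00438 and 6.40e-05 from limma). AGGF1 fell by 0.73 (adjusted p = 0.00812) and GPATCH2 rose by 0.93 (adjusted p = 0.0187, limma) in whole cells. Each of these 3 whole-cell calls was lost without 1 CHERP siRNA library (AGGF1 without the first, adjusted p = 0.106, GPATCH4 and GPATCH2 without the second, adjusted p = 0.0527 and 0.222). SON, a nuclear speckle protein, and TFIP11, a G-patch partner of DHX15, fell by 0.91 and 0.59 in the cytoplasm (adjusted p = 7.11e-05 and 0.000730 from limma).

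The genes whose abundance pattern lay nearest to that of CHERP were LIMCH1, CCDC34 and ZNF268. Likeness was the Euclidean distance over the 8 libraries, each value taken as log2(abundance + 0.01) minus the EGFP siRNA mean of its fraction, among 7883 genes with an average of no fewer than 10 reads in each fraction. The distances were 1.66, 2.06 and 2.07, against a median of 6.38 over genes. LIMCH1 had 2306 and 3331 reads against 397 and 379 in whole cells, CCDC34 730 and 1038 against 147 and 106, and ZNF268 1176 and 1460 against 233 and 232. Their whole-cell log2 fold changes were -2.93, -2.85 and -2.50 as a description of that choice.

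Splicing of the genes' own transcripts was then compared. For an inclusion level, reads of either form were divided by that form's effective length and the inclusion form was expressed in percent of both. Levels were tested with a quasi-binomial model on the reads with Benjamini-Hochberg adjustment within the event type. In whole cells 1 of 140 member events passed a threshold of 0.05, where 1.15% of all events passed. In the cytoplasm 0 of 48 passed in this test, where 0.135% of all events did, 2 had an unadjusted p under 0.05 against 6.6% of all events, and limma on the log2 odds also gave 0. In whole cells 13 of the 140 had an unadjusted p under 0.05, against 7.59% of all events. The groups did not overlap in 41 of the 127 whole-cell events with an average of 20 reads or more, against 29.7% of all such events, and in 10 of the 43 cytoplasmic ones, against 28%. Of the 127 whole-cell events with an average of no fewer than 20 reads, 3 had groups that did not overlap and a difference of at least 10 percentage points, against 6.63% of all such events. In the cytoplasm this held for 1 of 43, against 7.32%. The median absolute difference was 0.422 percentage points over the 127 whole-cell events and 1.00 over the 43 cytoplasmic events.

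The event that passed was an exon of 51 bases in PUF60 (chromosome 8, 144902836 to 144902886, minus strand). It is annotated in 18 transcripts, is wholly coding in 12 of them, and its length is a multiple of 3. Its inclusion level in whole cells was 66.2% and 69.5% with EGFP siRNA against 53.1% and 53.5% with CHERP siRNA. The inclusion reads were 404 and 334 against 299 and 299, and the skipping reads 152 and 108 against 195 and 192. Both CHERP siRNA libraries were thus well below both controls, with means of 67.9% ± 2.33 and 53.3% ± 0.273 (SD, n = 2). The difference of -14.6 percentage points had an adjusted p of 0.00299 in the quasi-binomial test fitted across all SE events, moderated with limma. For whole-cell SE events, the allowance for spread between libraries came wholly from a trend over all such events. The spread between this exon's own libraries therefore did not enter that p-value. The log2 odds ratio was -0.88 with a standard error of 0.21.

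In the cytoplasm the inclusion level of the PUF60 exon was 75.4% and 79.5% with EGFP siRNA against 62.4% and 65.6% with CHERP siRNA. The skipping reads were 43 and 33 against 68 and 42. The libraries again did not overlap, and the difference was -13.4 percentage points. It did not pass (unadjusted p = 0.00192, adjusted p = 0.299, quasi-binomial test moderated with limma), but passed among events with an average of no fewer than 20 reads (adjusted p = 0.0138). The interaction of siRNA and fraction for this exon had a log2 odds difference of -0.081 (standard error 0.38, unadjusted p = 0.827). No member event passed that interaction test among 38 shared by both fractions, and none had an unadjusted p under 0.05, where 0.0119% of all events passed. The whole-cell call was lost with limma on the log2 odds (adjusted p = 0.798), and without the second EGFP siRNA library or either CHERP siRNA library, with adjusted p of 0.0868, 0.152 and 0.119, while the difference stayed between -16.3 and -13.0 percentage points.

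A mutually exclusive exon (MXE) event of PUF60 lies next to it. It sets an exon of 96 bases (chromosome 8, 144903988 to 144904083), the inclusion form by its length, against one of 90 bases (144903767 to 144903856). Every annotated transcript with the 90-base exon also holds the 96-base exon, so they are not annotated as alternatives. The downstream exon of this event is also that of the 51-base exon. Joining the 90-base exon to it skips the 51-base exon. Reads can thus be shared by the events, and their differences are not separate results. The inclusion level of the MXE event in whole cells was 61.2% and 62.3% with EGFP siRNA against 52.5% and 47.8% with CHERP siRNA. The difference of -11.6 percentage points did not pass (adjusted p = 0.299, quasi-binomial test moderated with limma). Skipping of the 96-base and 90-base exons as single exons had at most 2 reads in any whole-cell library.

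SF3B1 had the event with the largest difference among those with an average of no fewer than 20 reads. It is an RI event in whole cells with the intron at 198283676 to 198285151 on chromosome 2, minus strand, 1476 bases long, followed by an exon of 156 bases. The first 56 of those bases form the exon whose splice sites are shown above. The intron lies within exons of 3 annotated transcripts, 1 each of the protein coding, nonsense-mediated decay and retained intron kinds, and 2 of these exons contain a stop codon. The retained form had 166 and 200 reads with EGFP siRNA against 709 and 896 with CHERP siRNA, whereas the spliced form had 6 and 6 against 4 and 10. The retained reads were far apart between the groups and the spliced reads overlapped.

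The inclusion level of this SF3B1 intron was 71.1% and 74.8% with EGFP siRNA against 94.0% and 88.8% with CHERP siRNA, a difference of 18.5 percentage points. This difference did not pass (unadjusted p = 0.0538, adjusted p = 0.494, quasi-binomial test moderated with limma). The spliced form counts only the junction into the exon that follows the intron in this event. Reads joining the same 5′ splice site to the exon at 198283233 to 198283312 were not part of this level. They numbered 246 and 302 with EGFP siRNA against 213 and 232 with CHERP siRNA. The level is thus not the share of SF3B1 transcripts that retained the intron. Scaled by the median ratios, the retained reads were 186 ± 7.82 with EGFP siRNA and 782 ± 157 with CHERP siRNA (SD, n = 2), a ratio of 4.20. Per 100 reads on the SE events of SF3B1 they were 1.64 ± 0.0987 against 7.47 ± 1.41 (SD, n = 2). This count was singled out after its values were seen and was not tested. Of 1551 whole-cell RI events with an average of no fewer than 20 retained reads, 6 had a ratio as high (0.387%), SF3B1 included, and the median ratio was 0.946. No RI event of SF3B1 was listed in the cytoplasm.

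**Figure D2:**
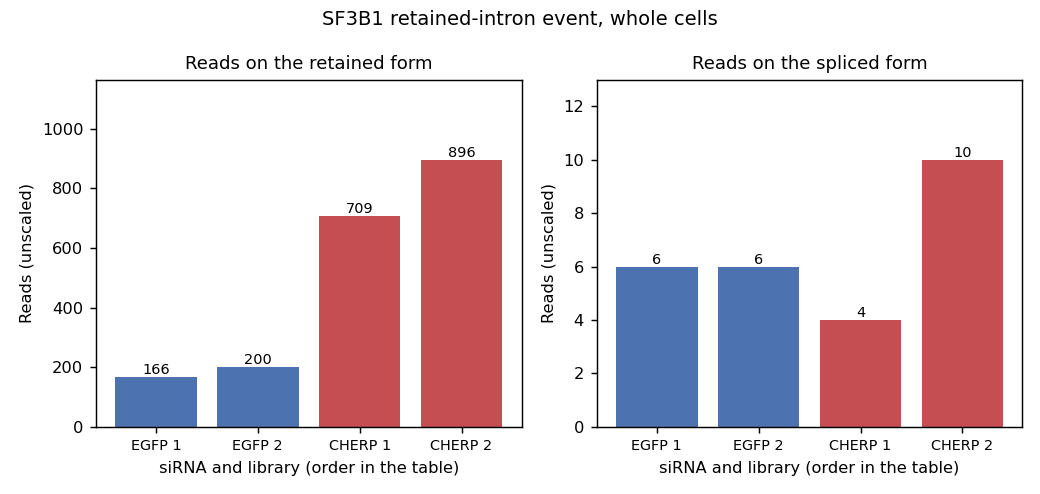
Unscaled reads on the retained form (left) and the spliced form (right) of the SF3B1 retained-intron event in each whole-cell library, numbered by their order in the table, with 2 libraries per siRNA. Retained reads were 166 and 200 with EGFP siRNA against 709 and 896 with CHERP siRNA, while spliced reads stayed between 4 and 10. The spliced form is the junction into the exon after the intron alone.

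The SF3B1 exon of 56 bases (198283620 to 198283675) was also measured as a skipped exon, and it is described because it shares the 3′ splice site of that intron, a choice made after its values were seen. It is annotated as exon 5 of 1 transcript, of the nonsense-mediated decay kind, with a stop codon inside it, and its length is not a multiple of 3. Inclusion reads were 6 and 6 with EGFP siRNA against 14 and 20 with CHERP siRNA in whole cells, and skipping reads 246 and 302 against 213 and 232. The inclusion level was therefore low in all libraries, at 1.73% and 1.41% against 4.52% and 5.84%. The difference of 3.61 percentage points did not pass (adjusted p = 0.283, quasi-binomial test moderated with limma). An alternative kept events with an average of at least 10 reads on the rarer form in either siRNA group. This exon met that filter through the CHERP siRNA group alone, where its inclusion was higher. Its adjusted p of 0.0321 under that filter (same test) is therefore not separate support. In the cytoplasm there were 0 and 4 inclusion reads against 0 and 1, and the difference was -0.953 percentage points (adjusted p = 0.570, same test).

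U2SURP had its smallest p at a coding exon of 177 bases (chromosome 3, 142773785 to 142773961, plus strand), whose length is a multiple of 3. The exon is in 4 transcripts, of which 2 are labelled protein coding and 2 nonsense-mediated decay. Its inclusion level in whole cells was 88.1% and 91.0% with EGFP siRNA against 85.6% and 78.5% with CHERP siRNA. Skipping reads were 29 and 31 against 38 and 62. The groups did not overlap, and the CHERP siRNA libraries differed more from each other than the controls did. The difference of -7.50 percentage points did not pass (adjusted p = 0.248, quasi-binomial test moderated with limma). It passed under the filter of 10 reads on the rarer form (adjusted p = 0.0267, same test), which both siRNA groups met for this exon. In the cytoplasm the levels were 92.1% and 92.5% against 90.6% and 82.5%, with an adjusted p of 0.562 from the same test.

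**Figure D3:**
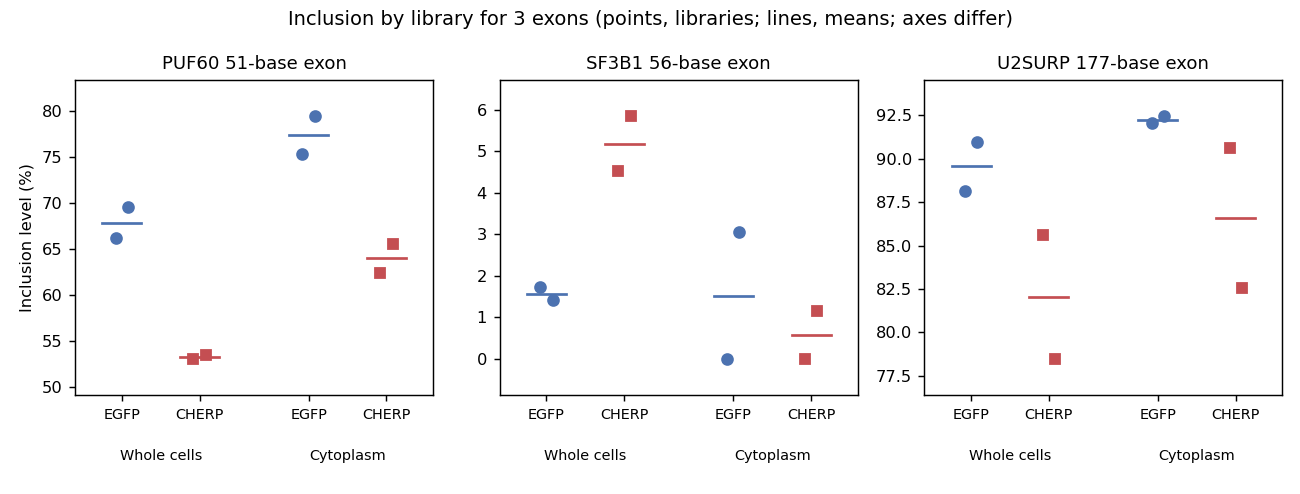
Inclusion level in percent (y axis, range differs between panels) of 3 exons in each library, by siRNA and fraction (x axis), with points for libraries (2 per group) and lines for means. Both CHERP siRNA libraries lay below both controls for the PUF60 exon in each fraction, the SF3B1 exon was below 6% throughout, and the U2SURP exon had the widest spread with CHERP siRNA.

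The 3′ splice sites showed values close to each other between the siRNAs. All 4 A3SS events of SF3B2 and RBM17 had sites 3 bases apart, as did 14.6% of the 4916 whole-cell A3SS events. At the SF3B2 site on chromosome 11 with CAGAAG, use of the upstream AG was 98.9% and 99.7% with EGFP siRNA against 98.5% and 98.0% with CHERP siRNA in whole cells (adjusted p = 0.650, quasi-binomial test moderated with limma). At the site with TAGTAG the means were 95.05% ± 1.23 and 94.1% ± 5.03, and at that with AAGCAG 90.4% ± 0.259 and 89.9% ± 0.0648 (SD, n = 2). The RBM17 site with CAGAAG had 99.6% ± 0.130 and 99.8% ± 0.218 (SD, n = 2). The same 6 bases thus occur in both genes, and in each the upstream AG took nearly all reads.

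CHERP's own A3SS event, with sites 33 bases apart (both exon forms are coding), had few reads. In whole cells the upstream site had 2 and 4 reads with EGFP siRNA against 0 and 0 with CHERP siRNA, and the downstream site 47 and 27 against 1 and 8. The 0 of 9 reads with CHERP siRNA allow a share of up to 33.3%, by counting error alone, so a difference was not detectable at this depth (adjusted p = 0.808, quasi-binomial test moderated with limma).

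The remaining genes had exons that were nearly always included. In SF3B3 an exon of 113 bases (chromosome 16, 70569211 to 70569323) had no skipping read among 762 with EGFP siRNA, which allows a share of up to 0.394%, and 3 and 4 skipping reads with CHERP siRNA (adjusted p = 0.437, quasi-binomial test moderated with limma). In SF3A3 an exon of 48 bases (chromosome 1, 38455220 to 38455267) appears in several events that differ in the exon next to it. With the neighbour that starts at 38450379 it had 2 and 6 skipping reads under EGFP siRNA and none among 699 reads under CHERP siRNA. This allows up to 0.429% for that junction (adjusted p = 0.190, same test). That junction also passes over the exons that start at 38453245 and 38453456, so its reads are not skipping of the 48-base exon alone. With the neighbour that starts at 38453456 there were 0 and 0 skipping reads against 5 and 3 in whole cells (adjusted p = 0.725, same test). In the cytoplasm there were 0 and 1 against 4 and 2 (adjusted p = 0.562, same test). The 2 junctions thus do not measure the same skipping. The exon of DHX15 with the smallest p (168 bases, chromosome 4, 24550478 to 24550645) had 0 and 9 skipping reads against 0 and 1 (adjusted p = 0.684), and that of RBM17 (167 bases, chromosome 10, 6146894 to 6147060) 0 and 3 against 0 and 0 (adjusted p = 0.725). These 4 exons were included at 97% or more in the mean of each group.

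**Figure D4:**
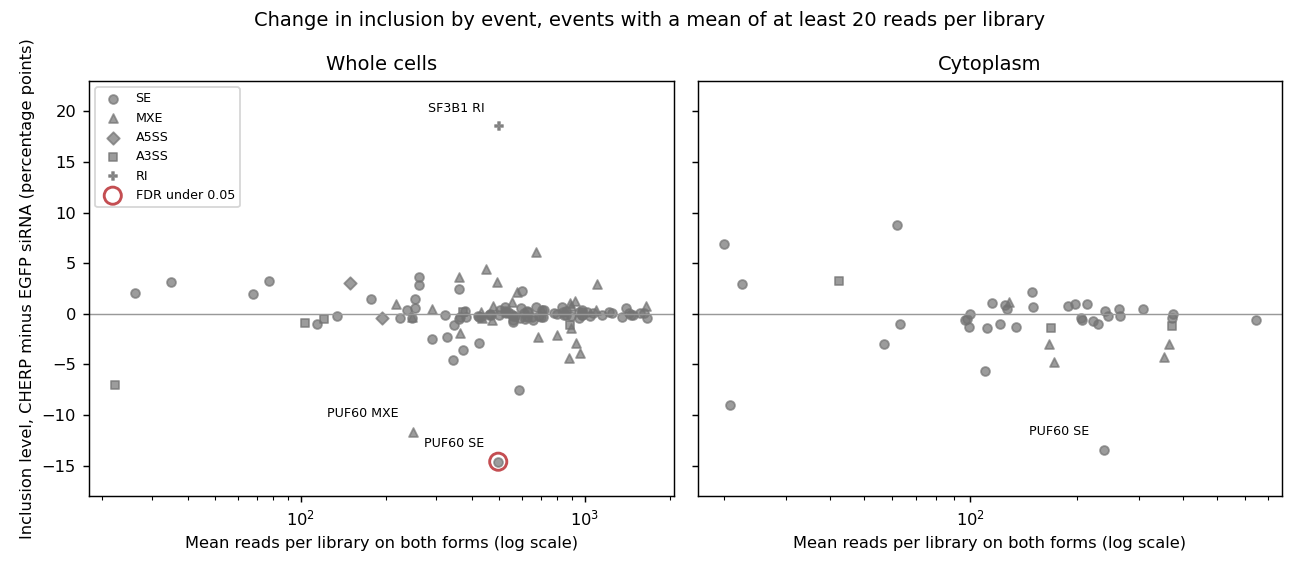
Difference in inclusion level, CHERP minus EGFP siRNA in percentage points (y axis), against the mean reads per library on both forms (x axis, log scale), for the 127 whole-cell and 43 cytoplasmic member events with an average of no fewer than 20 reads. Each symbol is an event, its shape gives the event type, and the circle marks the PUF60 exon that passed in whole cells, while labelled events differed by at least 10 percentage points.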

How the data were processed

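RNA-seq of U2OS cells was compared between EGFP and CHERP siRNA, in whole cells and in the cytoplasm, with 2 libraries per group. The authors mapped reads to hg19 with STAR 2.5.2b and ran rMATS (version not given in the sources used here). The deposited rMATS tables hold unnormalized reads of the inclusion and skipping forms, with both libraries of a group in 1 cell, and the effective length of each form. The deposited cytoplasmic expression table, made with RSEM 1.2.25 and EBSeq on GENCODE 19, holds mean normalized counts of the genes past its threshold alone. The authors' p-values, FDR, fold changes and 20 columns of inclusion levels were not used. The members and gene lists were chosen with earlier results of these data known.

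Inclusion against skipping reads was tested with a quasi-binomial F test. Its Pearson dispersion was moderated with squeezeVar of limma 3.58.1 in R 4.3.3 (trend on mean reads, floor of 1), from groups with at least 10 reads on the rarer form. For whole-cell SE and cytoplasmic A5SS events the trend alone set the dispersion, and an event's own spread had no weight. Abundance was tested with limma (trended variance) on log2(value + 0.01) and covered genes averaging 20 or more reads. Interactions used events shared by both fractions. All genes, and all events of a type, were fitted and adjusted together by the Benjamini-Hochberg method, at a threshold of 0.05, and the fits were tested on simulated data. All 10 members were named, with each event that passed, each with an average of 20 reads or more, no overlap and a difference of at least 10 percentage points, and otherwise the event with the smallest p in whole cells. From each list the 3 genes with the smallest adjusted p were named. Alternatives were another offset, filter, scaling, event choice, dispersion or test, and leaving out each library. Coordinates were compared with GENCODE 44 lifted to GRCh37, and sequences were read from GRCh37. With 2 libraries per group the spread is known poorly, and upper limits for a count of 0 (3 reads of the total) cover counting error only. The siRNA sequence was not used here.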

Additional observations from a re-analysis of the deposited data

How the results depend on the processing

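No paired analysis was possible because the libraries within a cell of the tables carry no replicate number. Over all results and alternatives, 776 of 843 values kept their direction and their side of the threshold or stayed within 1.5 times of a count. This number is high in part by construction. For events, alternatives other than leaving out a library changed the test and not the level, so the direction could not change. Values that had not passed were counted as kept where they again did not pass. Leaving out a library moved the count of members lower in whole cells between 1 and 6 (4 with all libraries), and in the cytoplasm between 3 and 4. Other alternatives gave 3 to 4 in whole cells and 3 to 5 in the cytoplasm. The count of member events that passed in whole cells ranged from 0 to 1 on leaving out a library. It was 0 with limma on the log2 odds. It was 3 with an average of at least 10 reads on the rarer form in either siRNA group, an alternative that tests fewer events. Among these, the SF3B1 exon of 56 bases met that filter through the CHERP siRNA group alone. In the cytoplasm the count was 1 rather than 0 with a mean of at least 20 reads or with 10 reads on the rarer form. With the dispersion from all groups with both forms, chosen after seeing the data, the counts stayed at 1 and 0. Signs turned, on leaving out 1 library, for values that had not passed. Abundance ranged from -0.38 to 0.20 for PUF60 in whole cells, from -0.12 to 0.099 for PUF60 in the cytoplasm, and from -0.14 to 0.073 for DHX15 in the cytoplasm (also 0.030). The DHX15 exon ranged from -0.0715 to 1.24 points, the CHERP 3′ splice sites in the cytoplasm from -17.5 to 23.3 (also -4.30), the SF3B1 exon in the cytoplasm from -2.48 to 0.571, and the PUF60 interaction from -0.25 to 0.080 (also 0.040 and 0.031). RBM25 in whole cells turned to 0.19 with 1 event per gene. The cause was not tested. CHERP itself and the rare forms had few reads.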
